A study of Homo sapiens with 24 samples.

Results

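The 10 YAP pathway genes described here were followed through 2 human ovarian cancer cell lines: YAP1, TEAD1, LATS2, AMOTL2, CCN1, CCN2, THBS1, CRIM1, ANKRD1 and AXL. They are 10 of the 28907 gene symbols in the deposited expression table, and all 10 were found there. The list was selected on measured values as well as on gene function, because CCN1 and CCN2 had been seen to move in opposite directions between the lines when the kinase gene VRK1 was silenced. The siVRK1 values of these 10 genes are therefore given as a description, without a test.

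The study read total RNA of A2780 and ES2 in 24 libraries, 3 per group in 8 groups. Cells of each line, wild type in the labels, received either siRNA (the control siCtrl, or siVRK1 directed at VRK1) or compound (DMSO as solvent control, or luteolin, a plant flavonoid). Doses and times were not stated in the sources used here. Nothing says that replicate libraries are separate cultures, so a p-value covers only the spread among these libraries, which may be technical. A pair of ES2 siVRK1 libraries share 1 column name and are called a and b beside library 3.

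Levels are in TPM, a measure corrected for transcript length and scaled to a fixed total, summed over the transcripts of a gene. The total is the same in every library, so sequencing depth is unknown and no interval for counting error can be given. Differences are on the log2 scale of TPM + 1 with the standard error (SE) of a limma fit, and a gene was called when its adjusted p was under 0.05.

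As background, the Hippo pathway is a kinase cascade that restrains the co-activator YAP1 and its relative TAZ, the product of WWTR1. When the kinases LATS1 and LATS2 phosphorylate YAP1 it is held in the cytoplasm, and when they do not it enters the nucleus and binds the DNA-binding factors TEAD1 to TEAD4. CCN1, CCN2, ANKRD1 and AMOTL2 are widely used readouts of this activity, and LATS2 and AMOTL2 are targets that also restrain YAP1. Messenger RNA levels do not report the phosphorylation or the location of YAP1.

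VRK1 itself checked the siRNA labels. In A2780 its level was 54.4, 53.6 and 55.2 TPM with siCtrl and 11.3, 9.41 and 7.98 TPM with siVRK1. In ES2 it was 65.5, 66.2 and 62.2 TPM with siCtrl and 4.08, 4.2 and 2.92 TPM with siVRK1. The siVRK1 libraries were below the siCtrl libraries in both lines, by 2.40 ± 0.11 and 3.80 ± 0.11 log2 units (SE, limma adjusted p = 1.75e-08 and 6.94e-11). With luteolin VRK1 fell by 0.43 ± 0.11 in A2780 (limma adjusted p = 0.00357), and in ES2 the difference was 0.02 ± 0.11 (adjusted p = 0.881).

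Marker genes of other cell types were read in the same libraries. Of 10 ovarian carcinoma markers, 2 to 3 reached 1 TPM on average in the A2780 groups and 4 to 5 in the ES2 groups, and their summed level was 5.48 to 12.2 TPM in A2780. The ES2 sums were 962 to 986 TPM with siCtrl, 636 to 675 TPM with siVRK1, 952 to 992 TPM with DMSO and 705 to 775 TPM with luteolin, with MUC16 and MSLN at 0 in all 4 groups. The 8 fibroblast markers summed to 251 to 303 TPM in A2780 with DMSO and to 127 to 137 TPM with luteolin, with 6 and 5 of them at or above 1 TPM and FAP at 0 in both groups. In ES2 the same list summed to 5.83 to 9.45 TPM. Of 6 endothelial markers, 1 to 2 reached 1 TPM in ES2 and none in A2780, with ES2 sums of 36.2 to 40.1 TPM with DMSO and 9.79 to 10.9 TPM with luteolin. Of 7 leukocyte markers, CD3E was at 0 in every library, and the ES2 sums were 36 to 42.2 TPM with siCtrl and 71.4 to 79 TPM with siVRK1. On average 2 of them reached 1 TPM in ES2 with siCtrl and 1 with siVRK1. The libraries come from cell lines, so the marker sums describe RNA of these lines and do not count other cell types. The part of these marker differences in the results below was not tested, and fewer cells expressing a marker cannot be told apart from less RNA per cell.

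**Figure D1:**
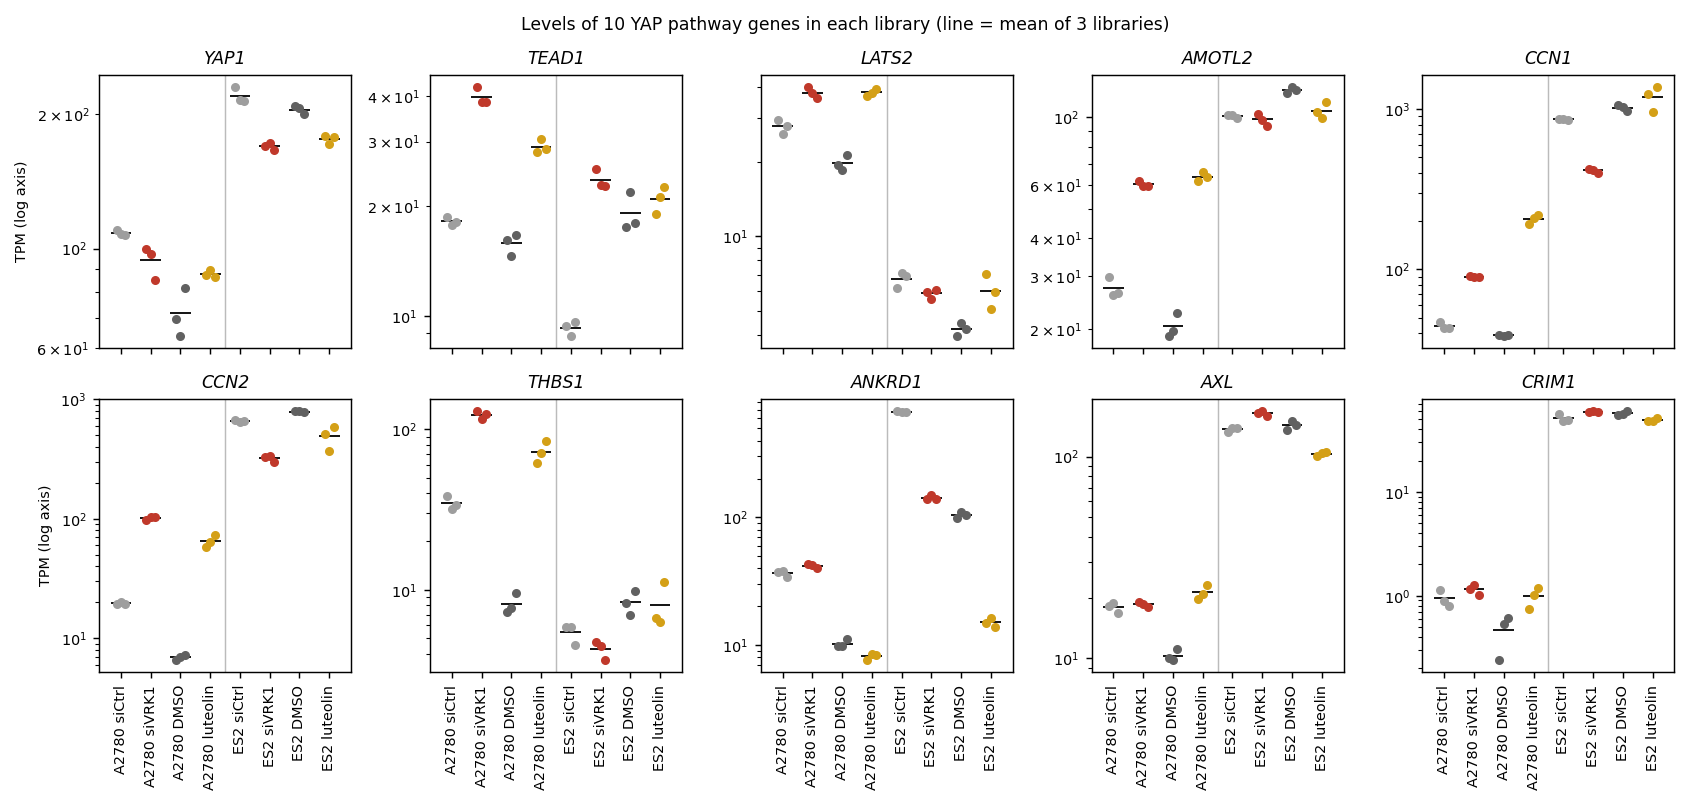
TPM of the 10 genes (log axis, a panel per gene) in each of the 24 libraries, with a point per library and a line at the mean of 3. CCN1, CCN2, AMOTL2, AXL, CRIM1 and YAP1 sit higher in every ES2 library than in any A2780 library, while LATS2 sits lower in every ES2 library.

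The promoter of CCN2 is shown first because CCN2 had the largest difference between the lines and the largest luteolin difference in A2780 among the 10 genes, with those of THBS1, which rose with luteolin in A2780 as CCN2 did, and of ANKRD1, which fell. CCN2 encodes a secreted matricellular growth factor, THBS1 a secreted glycoprotein of the matrix, and ANKRD1 a nuclear and sarcomeric ankyrin-repeat protein. The letters GGAATG are the core of the element bound by TEAD factors, and they are in capitals. Sequences are from RefSeq promoter windows on GRCh38.p14, 250 bases before to 50 after each start, shortened here to the part upstream of every annotated start, and are written 5′ to 3′ on the gene's strand.
CCN2, chr6:131951374-131951622, minus strand: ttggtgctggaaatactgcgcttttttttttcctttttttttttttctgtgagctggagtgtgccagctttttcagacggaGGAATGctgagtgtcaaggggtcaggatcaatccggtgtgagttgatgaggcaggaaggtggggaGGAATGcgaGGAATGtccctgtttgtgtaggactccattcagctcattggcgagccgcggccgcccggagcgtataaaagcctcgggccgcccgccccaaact
THBS1, chr15:39580829-39581078, plus strand: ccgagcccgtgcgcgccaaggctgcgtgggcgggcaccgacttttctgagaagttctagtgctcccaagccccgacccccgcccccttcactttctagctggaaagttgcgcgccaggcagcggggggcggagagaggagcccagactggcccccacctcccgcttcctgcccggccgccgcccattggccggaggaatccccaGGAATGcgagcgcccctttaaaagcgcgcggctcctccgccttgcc
ANKRD1, chr10:90921277-90921337, minus strand: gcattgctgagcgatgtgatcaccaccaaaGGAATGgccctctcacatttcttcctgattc

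GGAATG or its reverse complement CATTCC was searched for on both strands. The CCN2 window held 3 matches, whose first bases lie at -169, -104 and -95 from the start, and ANKRD1 held 2, at -220 and -128, of which the shortened stretch shows 1. Windows were matched for 7 of the 10 genes, in 9 windows, and 7 of these windows held a match. THBS1 had its match at -46, YAP1 at -162 and LATS2 at 9, after the start, and AMOTL2 and AXL each in 1 of their 2 windows. Of all 35116 windows of 300 bases, 14% held at least 1 match, 1.37% at least 2 and 0.128% at least 3. A match of letters describes the window and is not a measured binding site.

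With the siCtrl and DMSO groups of a line averaged, the lines differed for all 10 genes. Against A2780, 7 of the 10 were higher in ES2, where 34.3% of the genes tested were higher, and 3 were lower, where 49.4% were lower (siCtrl and DMSO libraries of each line, limma adjusted p under 0.05). The median difference was 2.73 over the 10 genes and -0.17 over all genes. Because rescaling the libraries moved that second median by over 0.1, to -0.03 with median-of-ratios scaling, differences between the lines are given relative to it, and all 10 calls held under both rescalings tried. The same applies below to A2780 with luteolin (median of all genes 0.22), to the A2780 control groups (0.24) and to the difference between the lines in the luteolin effect (-0.20). The SE and adjusted p printed beside such a value belong to the fitted difference before that median is taken off.

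CCN2 lies on chromosome 6 (131948176 to 131951373, minus strand). All coordinates of genes are from GENCODE 29 on GRCh38, matched by symbol, while the submitters' processing notes name hg19. CCN2 was at 19.5, 20.2 and 19.3 TPM with siCtrl and 6.6, 6.97 and 7.26 TPM with DMSO in A2780. In ES2 it was at 665, 645 and 662 TPM with siCtrl and 790, 795 and 775 TPM with DMSO. No control library of one line came near those of the other, and the difference was 5.98 ± 0.07 relative to the median of all genes (limma adjusted p = 2.65e-24).

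CCN1, the closely related secreted protein also called CYR61 (chromosome 1, 85580761 to 85583962), had the same order of lines. It was at 47.3, 43.3 and 43 TPM with siCtrl and 39.1, 38.7 and 39.1 TPM with DMSO in A2780, and at 871, 871 and 849 TPM with siCtrl and 1055, 1030 and 967 TPM with DMSO in ES2. The difference was 4.63 ± 0.06 relative to the median of all genes (limma adjusted p = 2.56e-24). CRIM1, a transmembrane protein that binds bone morphogenetic proteins, also differed by 5.20 ± 0.07 relative to the median (limma adjusted p = 1.04e-23), from 0.24 to 1.14 TPM in the A2780 controls and from 47.9 to 59.9 TPM in the ES2 controls (chromosome 2, 36355926 to 36551135). Its A2780 level is close to the 1 TPM needed for testing, so its small differences there rest on very little signal.

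On the average of both control groups, the genes that ran against this order were TEAD1, LATS2 and THBS1. LATS2, the kinase (chromosome 13, 20973032 to 21061547), was at 18.6 to 29.4 TPM in the 6 A2780 control libraries and 3.97 to 7.09 TPM in the 6 of ES2, a difference of -1.78 ± 0.06 relative to the median (limma adjusted p = 1.17e-17). THBS1 (chromosome 15, 39581079 to 39599466) was high in A2780 only with siCtrl, at 38.6, 32.1 and 33.6 TPM, against 7.27, 7.68 and 9.5 TPM with DMSO. Its ES2 levels of 4.5 to 9.88 TPM overlapped the A2780 DMSO libraries. TEAD1 (chromosome 11, 12674591 to 12944483) was lower in ES2 only with siCtrl, at 9.36, 8.84 and 9.6 TPM against 18.7, 17.7 and 18.1 TPM in A2780. With DMSO it was higher in ES2, at 17.5, 21.8 and 18 TPM against 16.1, 14.6 and 16.7 TPM. Its direction between the lines thus depends on the control group.

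VRK1 silencing is described next, gene by gene, with no test. CCN1 was higher in A2780, at 90.5, 89.5 and 90.3 TPM with siVRK1, above every siCtrl library, and lower in ES2, at 424, 417 and 401 TPM in libraries a, b and 3, below every siCtrl library. The log2 differences were 1 ± 0.05 in A2780 and -1.06 ± 0.09 in ES2. CCN2 was at 98.2, 103 and 103 TPM with siVRK1 in A2780 and at 330, 335 and 301 TPM in ES2, which gave 2.31 ± 0.08 and -1.03 ± 0.12. Even so the siVRK1 libraries of ES2 stayed above those of A2780 for both genes.

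The ratio of CCN1 to CCN2 shows how evenly the pair moved. With siVRK1 in A2780 it was 0.887 ± 0.030 (SD, n = 3) against 2.27 ± 0.14 with siCtrl, so that CCN2 exceeded CCN1 in this group alone among the 8. In ES2 it was 1.29 ± 0.04 with siVRK1 and 1.31 ± 0.03 with siCtrl. The ratio thus differed between the A2780 groups, which did not overlap, and lay within the spread between libraries in ES2.

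ANKRD1 (chromosome 10, 90912096 to 90921276) parted from the CCN genes in A2780. It was at 43.1, 42.1 and 40.1 TPM with siVRK1 and 37.5, 37.7 and 34.2 TPM with siCtrl, a difference of 0.19 ± 0.07. In ES2 it was at 140, 150 and 138 TPM with siVRK1 against 680, 671 and 667 TPM with siCtrl, a difference of -2.23 ± 0.06. This was the largest siVRK1 difference among the 10 genes in ES2, and the libraries did not overlap.

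THBS1 was at 130, 116 and 124 TPM with siVRK1 in A2780, above every siCtrl library (1.80 ± 0.12). In ES2 it was at 4.69, 4.44 and 3.66 TPM against 5.88, 5.87 and 4.5 TPM, and the groups overlapped (-0.28 ± 0.19). AMOTL2, a junction scaffold that binds YAP1 (chromosome 3, 134355874 to 134375479), was at 61.5, 59.6 and 59.4 TPM against 29.7, 25.9 and 26.3 TPM in A2780 (1.11 ± 0.07). In ES2 its groups overlapped, at 103, 98.4 and 94 TPM with siVRK1 and 99.9 to 102 TPM with siCtrl (-0.04 ± 0.05). LATS2 was at 40.1, 37.8 and 36.2 TPM against 29.4, 26 and 27.9 TPM in A2780 (0.44 ± 0.07). In ES2 it was at 5.97, 5.6 and 6.07 TPM against 6.18, 7.09 and 6.91 TPM (-0.17 ± 0.11). The LATS2 groups did not overlap in either line.

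TEAD1 was higher with siVRK1 in both lines. It was at 42.3, 38.4 and 38.4 TPM in A2780 against 18.7, 17.7 and 18.1 TPM, and at 25.3, 22.8 and 22.6 TPM in ES2 against 9.36, 8.84 and 9.6 TPM, with differences of 1.09 ± 0.07 and 1.26 ± 0.09. YAP1 (chromosome 11, 102110461 to 102233423) was lower in both, at 99.7, 97.5 and 85.1 TPM against 107 to 110 TPM in A2780 (-0.21 ± 0.08) and at 170, 172 and 166 TPM against 214 to 230 TPM in ES2 (-0.37 ± 0.04). The DNA-binding partner and the co-activator thus lay on opposite sides of their controls. AXL, a receptor tyrosine kinase (chromosome 19, 41219203 to 41261766), differed by 0.05 ± 0.08 in A2780 and 0.26 ± 0.04 in ES2, and CRIM1 by 0.15 ± 0.16 and 0.20 ± 0.06.

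**Figure D2:**
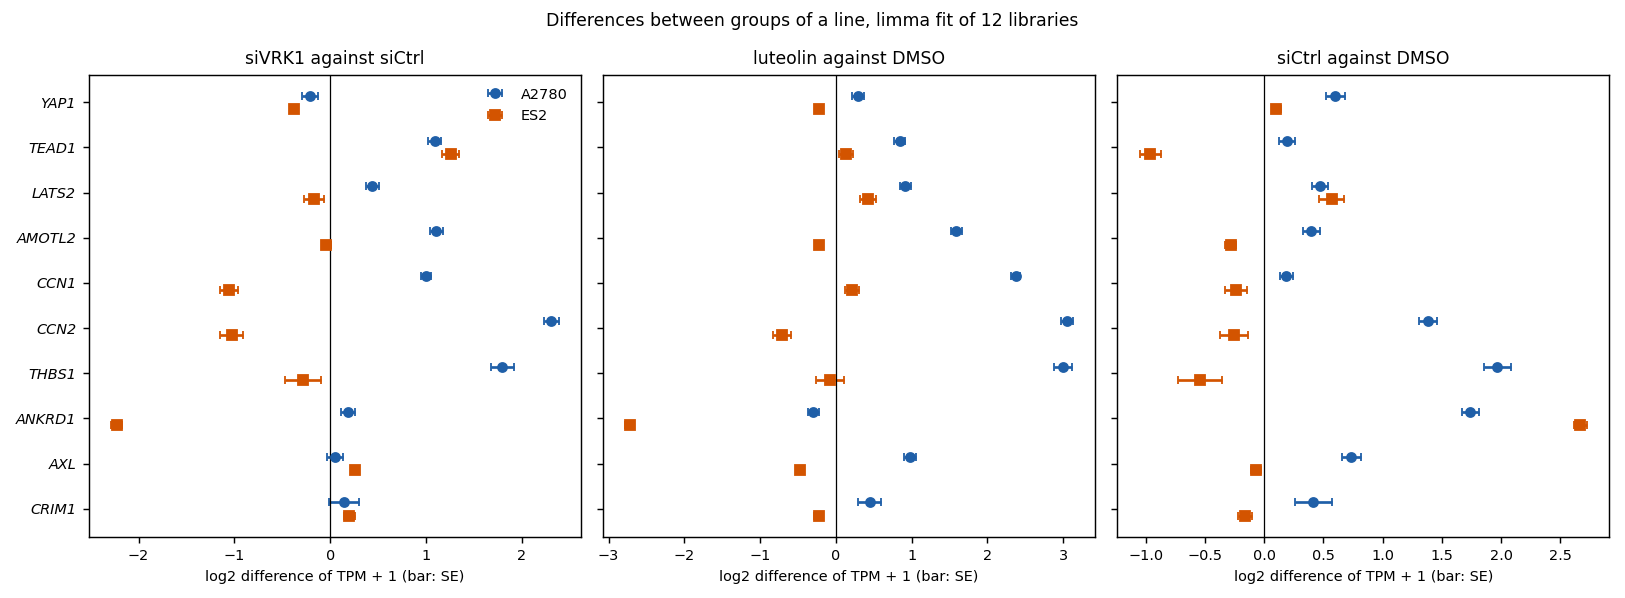
Log2 differences of TPM + 1 with their SE (bars) for the 10 genes, in A2780 (circles) and ES2 (squares), for siVRK1 against siCtrl, luteolin against DMSO and siCtrl against DMSO, from the limma fit of the 12 libraries of each line; the horizontal ranges differ between panels. CCN1 and CCN2 lie on opposite sides of 0 in the siVRK1 panel, and ANKRD1 of ES2 lies near -2.72 with luteolin and near 2.67 between the control groups.

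Luteolin was tested against DMSO, a contrast that the stated rule for the genes did not name. The genes were chosen with earlier results of these data known, so the p-values may not be free of that choice. In A2780, 9 of the 10 genes rose and ANKRD1 fell, where 45.6% of all genes tested rose and 19.9% fell (limma, adjusted p under 0.05). CRIM1, among those that rose, needed libraries of other groups to pass the filter and was not tested with the luteolin and DMSO libraries alone. With median-of-ratios scaling 7 rose and 1 fell, against 30.2% and 34.7% of all genes, and YAP1 and CRIM1 were no longer called. The median difference was 0.94 over the 10 genes and 0.22 over all genes. Its DMSO libraries also serve in the comparison of control groups given further on.

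CCN2 had the largest rise. It was at 58.1, 63.8 and 73 TPM with luteolin, a difference of 2.83 ± 0.08 relative to the median of all genes (limma adjusted p = 2.09e-11). THBS1 was at 61.4, 71.6 and 84.6 TPM with luteolin, a difference of 2.79 ± 0.12 (limma adjusted p = 7.23e-10). CCN1 was at 191, 209 and 217 TPM, a difference of 2.15 ± 0.05 (limma adjusted p = 9.5e-12). These secreted proteins thus made up the top of the list, and no luteolin library overlapped a DMSO library for any of them.

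AMOTL2 was at 61.9, 65.9 and 63.4 TPM with luteolin and 19.1, 19.7 and 22.6 TPM with DMSO (1.38 ± 0.07 relative to the median, limma adjusted p = 2.42e-09). AXL, LATS2 and TEAD1 rose by 0.76 ± 0.08, 0.70 ± 0.07 and 0.62 ± 0.07 relative to the median, with adjusted p of 4.14e-07, 1.96e-07 and 4.24e-07 in the limma fit. TEAD1 was at 28, 30.5 and 28.7 TPM with luteolin against 16.1, 14.6 and 16.7 TPM. YAP1 itself, at 87.5, 89.6 and 86.2 TPM against 69.7, 63.9 and 81.8 TPM, differed by only 0.08 ± 0.08 relative to the median, and with median-of-ratios scaling its adjusted p was 0.58. CRIM1 differed by 0.23 ± 0.16, and its direction turned with quantile normalization (-0.07, adjusted p = 0.705).

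ANKRD1 went the other way in A2780. It was at 7.64, 8.43 and 8.31 TPM with luteolin and 9.78, 9.83 and 11.1 TPM with DMSO. The fall was 0.52 ± 0.07 relative to the median, and the fitted difference was -0.30 (limma adjusted p = 0.00292 for the latter). The groups did not overlap, but the fall was small beside that in ES2.

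In ES2, 1 of the 10 genes rose, LATS2, and 6 fell, YAP1, CCN2, ANKRD1, AMOTL2, AXL and CRIM1, where 22.6% of all genes tested rose and 25.8% fell. TEAD1, CCN1 and THBS1 were not called. ANKRD1 was at 14.9, 16.2 and 13.9 TPM with luteolin against 98.7, 111 and 105 TPM with DMSO, a fall of 2.72 ± 0.06 (limma adjusted p = 3.55e-11). It was the largest luteolin change of the 10 genes in this line, and no library of one group came near the other.

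CCN2 fell in ES2, from 790, 795 and 775 TPM with DMSO to 508, 372 and 588 TPM with luteolin (-0.71 ± 0.12, limma adjusted p = 0.000346). Luteolin library 2 was the lowest, and without it the difference was -0.525 (adjusted p = 2.66e-05). The same library had the lowest CCN1, at 965 TPM beside 1237 and 1373 TPM, and CCN1 with DMSO was at 1055, 1030 and 967 TPM. CCN1 was not called (0.21 ± 0.09, limma adjusted p = 0.0752), but without that library the difference was 0.36 and called (adjusted p = 0.000101). It was also called with quantile normalization (adjusted p = 0.00206) and with all 24 libraries in the fit (0.0367). The ratio of CCN1 to CCN2 was 2.46 ± 0.13 (SD, n = 3) with luteolin in ES2 and 1.29 ± 0.04 with DMSO, and the groups did not overlap.

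The other changes in ES2 were small. AXL fell by 0.47 ± 0.04, AMOTL2 by 0.23 ± 0.05, CRIM1 by 0.22 ± 0.06 and YAP1 by 0.22 ± 0.04, with adjusted p from 1.99e-06 to 0.00712 in the limma fit. CRIM1 was not called with all 24 libraries in the fit (adjusted p = 0.073). LATS2 rose by 0.42 ± 0.11 (limma adjusted p = 0.00554), from 3.97, 4.44 and 4.21 TPM to 7.05, 5.08 and 5.95 TPM. LATS2 was thus the gene of the 10 that rose with luteolin in both lines. TEAD1 differed by 0.13 ± 0.09 and THBS1 by -0.08 ± 0.19, and leaving out ES2 DMSO library 3 or luteolin library 1 or 2 turned the direction of THBS1.

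The luteolin effects of the lines were compared in a fit of all 24 libraries. For all 10 genes the effect was lower in ES2 than in A2780, where 35.8% of all genes tested had a lower effect and 14.7% a higher one. With median-of-ratios scaling the 10 calls held, while all genes split into 24.3% lower and 25.1% higher, and with quantile normalization 9 of them held, CRIM1 being lost. Relative to the median of all genes, CCN2 differed most, by -3.56 ± 0.15 (limma adjusted p = 2.2e-13), then THBS1 by -2.88 ± 0.24 (2.65e-09) and ANKRD1 by -2.23 ± 0.09 (5.12e-14). LATS2 differed least, by -0.30 ± 0.12, and its fitted difference before the median is taken off was -0.49 (limma adjusted p = 0.00185 for the latter).

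The control groups of a line also differed from each other. They differ in siRNA against solvent, and with no times or batches stated the sources of the difference cannot be told apart. siCtrl shares its libraries with the siVRK1 comparison and DMSO with the luteolin one, so the values stand side by side and no agreement between them is read. In A2780 all 10 genes were higher with siCtrl than with DMSO, where 47.2% of all genes tested were higher and 10.9% lower. CRIM1, at 0.242 to 0.615 TPM with DMSO, needed libraries of other groups to pass the filter and was not tested with these groups alone. With median-of-ratios scaling 6 of the 10 were called higher, against 22.7% of all genes, and TEAD1 and CCN1 turned direction. In ES2, 3 genes were higher with siCtrl, where 34.7% of all genes were, and 5 were lower, where 21.5% were. With median-of-ratios scaling 2 of the 10 were higher and 7 lower, against 29.9% and 26.1% of all genes. Leaving out ES2 siCtrl library 3 or DMSO library 3 cut the calls from 8 to 5 or 4.

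ANKRD1 carried the largest of these control differences in ES2 among the 10 genes. It was at 680, 671 and 667 TPM with siCtrl and 98.7, 111 and 105 TPM with DMSO (2.67 ± 0.06, limma adjusted p = 1.31e-11), and at 37.5, 37.7 and 34.2 TPM against 9.78, 9.83 and 11.1 TPM in A2780 (1.49 ± 0.07 relative to the median, adjusted p = 1.64e-08). The ES2 siVRK1 libraries, at 138 to 150 TPM, lay below siCtrl and above DMSO. THBS1 was higher with siCtrl in A2780 by 1.73 ± 0.12 (limma adjusted p = 2.1e-07) and CCN2 by 1.14 ± 0.08 (1.2e-07), both relative to the median. TEAD1 in ES2 was at 9.36, 8.84 and 9.6 TPM with siCtrl and 17.5, 21.8 and 18 TPM with DMSO (-0.96 ± 0.09, limma adjusted p = 1.94e-06). The siVRK1 level of TEAD1 in ES2, 22.6 to 25.3 TPM, was further from siCtrl than from DMSO.

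The transcripts that make up CCN1 differed between the groups of ES2. Of its 6 transcripts in the table, ENST00000451137 held most of the TPM, and the other 5 held 5.36% to 7.38% of CCN1 TPM on average in the A2780 groups. In ES2 they held 9.66% ± 1.56 (SD, n = 3) with siCtrl, 14.9% ± 0.8 with siVRK1, 32.1% ± 1.1 with DMSO and 22% ± 5.5 with luteolin. Counting ENST00000451137 alone, ES2 had 780 ± 6 TPM with siCtrl, 352 ± 8 TPM with siVRK1, 691 ± 40 TPM with DMSO and 936 ± 224 TPM with luteolin. On that measure the DMSO level lay below the siCtrl level in ES2, whereas the gene sum lay above it. Of the 6 transcripts, 2 are in GENCODE 29, and how reads divide among such overlapping transcripts rests on the authors' estimate. CCN2 and ANKRD1 have 1 transcript each in the table, so their sums involve no such division. TEAD1, AMOTL2, THBS1 and VRK1 are marked in GENCODE as overlapping another locus, and without a stated strand setting reads from both cannot be told apart.

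**Figure D3:**
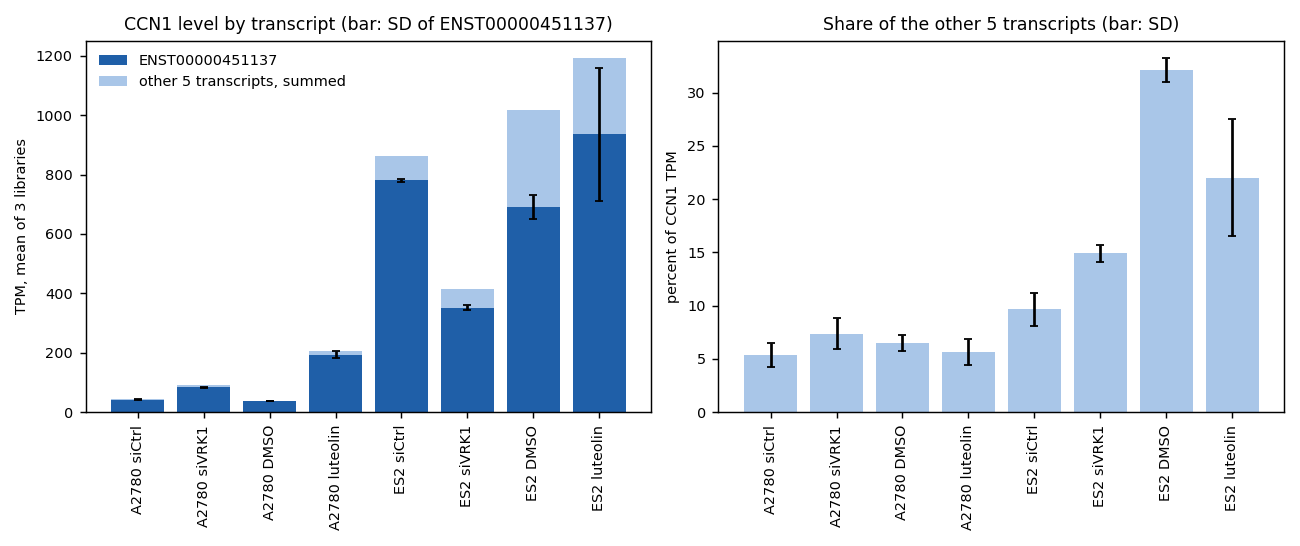
Left, mean TPM of CCN1 in each group (n = 3), divided into ENST00000451137 and the other 5 transcripts, with the SD of the first as the bar; right, the share of the other 5 in percent, with its SD. The share is 5.36% to 7.38% in A2780 and reaches 32.1% in ES2 with DMSO.

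The genes upstream of YAP1 were read from a list of 19 Hippo kinases, scaffolds and adaptors, with values in A2780 given before the median of all genes is taken off. With siVRK1 in A2780, 4 rose and 4 fell of 19 tested, where 13.8% of all genes rose and 27% fell, and 8 rose and 3 fell with median-of-ratios scaling, where 20.3% and 20.7% did. The list had a median of 0.14 against -0.08 over all genes. AMOT, an angiomotin that binds YAP1, rose by 0.97 ± 0.12, and the kinase STK3 fell by 0.62 ± 0.10. In ES2, 7 rose and 8 fell of 18 tested, where 26.8% of all genes rose and 28% fell, and the median was -0.13 against -0.00223 over all genes. The membrane scaffolds FRMD6 and NF2 rose there by 1.72 ± 0.08 and 1.25 ± 0.05, and the LIM protein AJUBA, which binds LATS kinases, fell by 0.77 ± 0.08 (adjusted p of these 5 genes from 2.26e-09 to 0.000317 in limma). In ES2 FRMD6 averaged 77.9 TPM with siCtrl, 259 TPM with siVRK1 and 231 TPM with DMSO, and NF2 32.4, 78.5 and 56.8 TPM. Between the ES2 control groups FRMD6 and NF2 were thus lower with siCtrl than with DMSO, by 1.56 ± 0.08 and 0.79 ± 0.05. AJUBA differed between them by 0.06 ± 0.08. With luteolin in A2780, 16 rose and none fell of 19 (12 and 2 with median-of-ratios scaling), where 45.6% of all genes rose and 19.9% fell (30.2% and 34.7% with that scaling). The median was 0.47 against 0.22 over all genes, with FRMD6 at 1.03 ± 0.14 and AJUBA at 1.02 ± 0.07. In ES2, 2 rose and 5 fell of 18, where 22.6% of all genes rose and 25.8% fell, with a median of -0.13 against -0.00333 over all genes, AMOTL1 at -0.47 ± 0.06 and NF2 at -0.40 ± 0.05.

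Among the transcription partners, 6 of 7 were tested in each line, with medians of 0.09 and 0.63 with siVRK1 and 0.01 and -0.14 with luteolin in A2780 and ES2. The medians of all genes were -0.08 and -0.00223 with siVRK1 and 0.22 and -0.00333 with luteolin. Values in A2780 are again given before these medians of all genes are taken off. WWTR1, which encodes TAZ, fell with siVRK1 in ES2 by 0.75 ± 0.10 (limma adjusted p = 6.57e-05), where 5 of the 6 rose, beside 26.8% of all genes that rose and 28% that fell. Among the 5 was VGLL4, a competitor of YAP1 for TEAD factors, by 0.98 ± 0.07. Between the ES2 control groups WWTR1 was higher with siCtrl than with DMSO by 1.11 ± 0.10, and VGLL4 was lower by 0.28 ± 0.07. In A2780, 2 rose and none fell, TEAD3 by 0.94 ± 0.08 and VGLL4 by 0.46 ± 0.10, and 4 rose with median-of-ratios scaling, beside 13.8% of all genes that rose and 27% that fell (20.3% and 20.7% with that scaling). With luteolin in A2780 WWTR1 rose by 0.83 ± 0.09 and TEAD3 by 1.07 ± 0.08, while TEAD4 fell by 0.43 ± 0.05 and TEAD2 by 0.27 ± 0.06. These 2 rises and 2 falls stood where 45.6% of all genes rose and 19.9% fell. With luteolin in ES2 WWTR1 fell by 0.39 ± 0.10 and TEAD4 by 0.23 ± 0.06, and TEAD3 rose by 0.30 ± 0.09. There 22.6% of all genes rose and 25.8% fell. The ES2 call of TEAD3 was lost without luteolin library 2 or without luteolin library 3.

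A list of 15 further YAP and TAZ target genes was read in the same way, with values in A2780 again given before the median of all genes is taken off. In A2780, 10 of them were tested, and with siVRK1 5 rose and none fell, where 13.8% of all genes rose and 27% fell, with a median of 0.30 against -0.08 over all genes. NUAK2, a kinase of the AMPK family, rose from 2.13 to 7.87 TPM on average (1.51 ± 0.15, limma adjusted p = 8.29e-06). In ES2, 8 of 15 rose and 5 fell with siVRK1, where 26.8% of all genes rose and 28% fell, with a median of 0.23 against -0.00223. CCDC80, a secreted matrix protein, rose from 9.11 to 57.3 TPM (2.54 ± 0.12) and F3, tissue factor, from 5.46 to 18.7 TPM (1.61 ± 0.13). The growth factor TGFB2 fell by 0.99 ± 0.13 and NT5E, the ecto-enzyme CD73, by 0.53 ± 0.03. Between the ES2 control groups CCDC80 and F3 were lower with siCtrl than with DMSO by 3.14 ± 0.12 and 1.94 ± 0.13, more than they rose with siVRK1. TGFB2 and NT5E were higher with siCtrl than with DMSO by 0.37 ± 0.13 and 1.29 ± 0.03.

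With luteolin in A2780, 8 of the 10 tested targets rose and none fell (6 and 1 with median-of-ratios scaling), where 45.6% of all genes rose and 19.9% fell (30.2% and 34.7% with that scaling). The median was 0.54 against 0.22 over all genes. GADD45A, a stress-response gene, rose from 22.3 to 199 TPM (3.11 ± 0.08, limma adjusted p = 2.3e-11) and NUAK2 from 1.1 to 6.11 TPM (1.74 ± 0.15). In ES2, 3 rose and 8 fell of 15, where 22.6% of all genes rose and 25.8% fell, with a median of -0.20 against -0.00333. GADD45A rose there as well, from 93.4 to 235 TPM (1.29 ± 0.12), with F3 at 0.60 ± 0.13, while IGFBP3, an IGF-binding protein, fell by 1.74 ± 0.13 and CCDC80 by 1.24 ± 0.12. Of the other CCN genes only CCN3 was tested, in ES2, where it fell by 1.21 ± 0.15 with siVRK1 (limma adjusted p = 2.67e-05) and by 0.41 ± 0.15 with luteolin (0.0435). It was higher with siCtrl than with DMSO there by 0.90 ± 0.15.

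**Figure D4:**
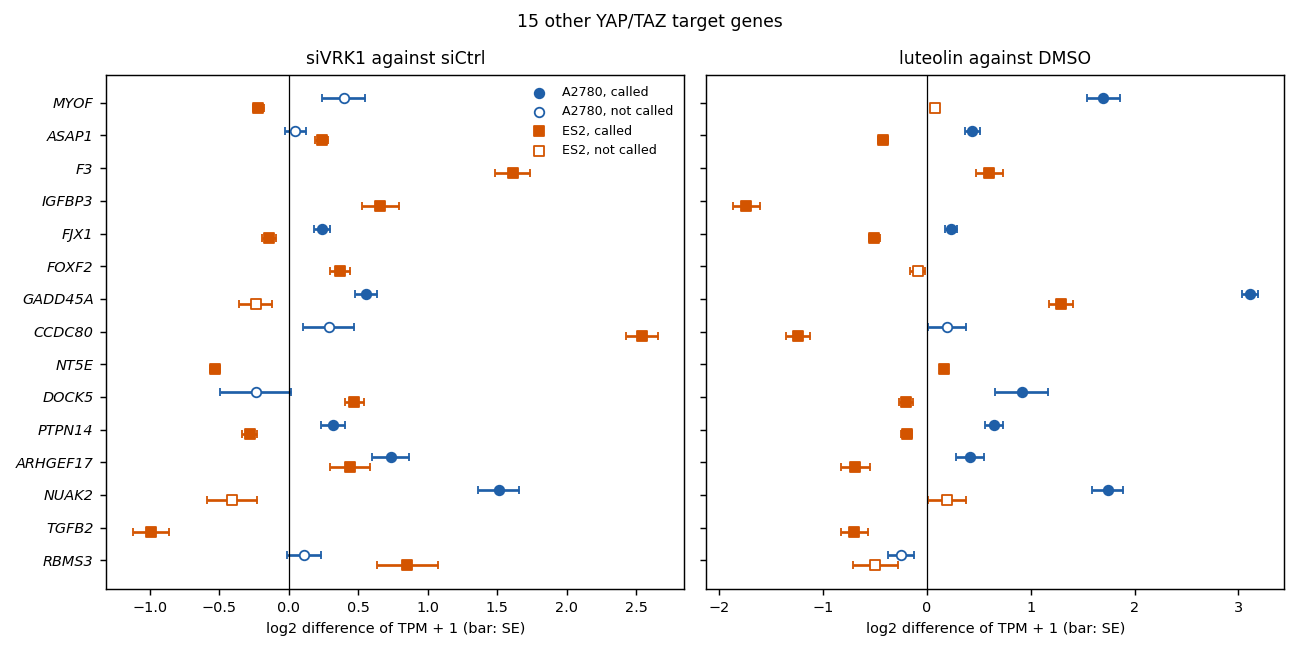
Log2 differences of TPM + 1 with their SE (bars) for 15 further YAP and TAZ targets in A2780 (circles) and ES2 (squares), filled where called by limma, with a gene that was not tested in a line left blank. With siVRK1 no gene is called lower in A2780, while CCDC80 reaches 2.54 and TGFB2 -0.99 in ES2.

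The patterns over all 24 libraries were compared after subtracting the mean of each line, as a description, since libraries of a group share their treatment. CCN2 ran closest to THBS1 (Pearson r = 0.949) and AMOTL2 (0.94) among the 10 genes, less so to CCN1 (0.757) and hardly to ANKRD1 (0.199). No r was computed per line. With siVRK1 the ES2 differences were -1.03 for CCN2, -0.28 for THBS1 and -0.04 for AMOTL2, against 2.31, 1.80 and 1.11 in A2780. CCN1 had an r of -0.302 with ANKRD1. Among all other genes with at least 5 TPM in a group, the 5 most like CCN2 were AHNAK (0.935), NUAK2 (0.935), TMEM30B (0.926), LMOD1 (0.923) and AJUBA (0.901). TMEM30B and LMOD1 were at or near 0 in ES2, so their likeness rests on A2780. Those most like CCN1 were CEP170B (0.948), NADSYN1 (0.948), HRAS (0.929), PLK2 (0.926) and MTSS2 (0.917). PLK2, a polo-like kinase, averaged 127 TPM with siCtrl and 53.5 TPM with siVRK1 in ES2, and 7.09 TPM with DMSO and 121 TPM with luteolin in A2780. With siCtrl and siVRK1 in A2780 it averaged 14.2 ± 2.55 and 18 ± 3.86 TPM (SD), where CCN1 averaged 44.5 and 90.1 TPM.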

How the data were processed

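The deposited table holds a TPM value per transcript and library, which the authors made with kallisto after FastQC, on hg19, per the submitters' processing notes. No version, transcript set or strand setting was stated there. Each transcript was used once (191887 in 193845 lines, the 1958 repeated lines being identical), and TPM were summed per symbol. Transcripts that carried several symbols (19) or none (9542) were dropped, 0.514% to 1.03% of the TPM of a library. Libraries held 11792 to 12862 genes at or above 1 TPM, and transcripts of 13 mitochondrial mRNAs made up 4.03% to 12.1%. Groups follow the titles, since the cell line and treatment labels count up within a line.

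Differences were fitted in R 4.3.3 with limma 3.58.1, as two-sided trend fits of log2(TPM + 1), for genes with at least 1 TPM in at least 3 libraries, adjusted by Benjamini-Hochberg over all genes tested. Within a line the 12 libraries of that line entered, and between lines all 24. This scale understates changes of genes near or below 1 TPM. The fit was tested on simulated data. Alternatives tried were a pseudocount of 0.1 or 5, the filter removed or set to 5 TPM, median-of-ratios scaling and quantile normalization, other sets of libraries, a robust prior, a replicate block and leaving out each library.

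The genes and lists were chosen with earlier results of these data known. Named were the 10 genes, VRK1, the 5 genes most like CCN1 and CCN2, and from each list up to 2 called rises and 2 called falls per siVRK1 and luteolin comparison that averaged 5 TPM or more in the higher group, of which the text names some.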

Additional observations from a re-analysis of the deposited data

Results flagged for a closer look

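The luteolin effect differed between the lines for each of the 10 genes, in a limma fit of all 24 libraries with an interaction term (adjusted p under 0.05). Of all genes tested, 35.8% had a lower effect in ES2 and 14.7% a higher one. The ES2 minus A2780 difference of effects, before the median of all genes (-0.20) is taken off, was -0.51 for YAP1, -0.71 for TEAD1, -2.16 for CCN1, -3.76 for CCN2, -2.42 for ANKRD1, -1.82 for AMOTL2, -0.49 for LATS2, -1.44 for AXL, -0.67 for CRIM1 and -3.08 for THBS1. With quantile normalization the CRIM1 difference was -0.16 and not called (adjusted p = 0.368).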

How the results depend on the processing

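The 60 tested differences of the 10 genes were recomputed under 1056 alternatives: 988 kept their direction and side of the threshold, 49 lost their call, 11 gained one and 8 reversed. The reversals were small values: CRIM1 with luteolin in A2780 (-0.07 with quantile normalization), THBS1 with luteolin in ES2 (0.0365 without DMSO replicate 3, 0.0188 and 0.0622 without luteolin replicates 1 and 2, over a range of -0.313 to 0.0622), and between the A2780 control groups TEAD1 (-0.0663 with median-of-ratios scaling, -0.125 with quantile normalization) and CCN1 (-0.0794 and -0.0389). The untested siVRK1 difference between lines of TEAD1 was -0.0119 with quantile normalization. The count of genes called between the A2780 control groups was 6 with either rescaling and 7 to 10 with single libraries left out. Between the ES2 control groups it was 5 with the replicate block and 4 to 7 with single libraries left out, 5 without siCtrl replicate 3 and 4 without DMSO replicate 3. The cause was not tested.

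The replicate numbers pair no samples: correlations of same-numbered libraries were -0.09 to 0.04 in A2780 and -0.05 to 0.03 in ES2, none over 0.1. The block drops ES2 siVRK1 libraries a and b and leaves 1 library in that group, so calls with siVRK1 in ES2 are not compared. The median siVRK1 difference in ES2 went from 0.235 to 0.217 over the further targets with the block. It went from -0.135 to -0.17 over the Hippo list and from 0.634 to 0.557 over the transcription partners. Depth is unknown, so the precision of low values such as CRIM1 in A2780 cannot be stated.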
